A study of Mus musculus with 6 samples.

Results

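The transcripts of 10 target genes of the tumor suppressor p53 were followed through single-cell RNA sequencing of c-Kit-enriched mouse bone marrow. The members were Cdkn1a, Mdm2, Ccng1, Bax, Bbc3, Pmaip1, Phlda3, Trp53inp1, Sesn2 and Eda2r, taken by symbol from the 32285 genes of the count matrices, and each symbol matched 1 gene. The marrow came from BALB/c mice aged 10 weeks at harvest. The groups were non-tumor-bearing mice (NTB), mice with orthotopic 4T1 tumors given vehicle, and mice with 4T1 tumors given brequinar (BRQ). BRQ was given intraperitoneally at 10 mg/kg daily for about 2 weeks and blocks DHODH, the enzyme of de novo pyrimidine synthesis that sits in the mitochondrion. 4T1 is a transplantable BALB/c mammary carcinoma line, implanted here into mammary gland 4. Each of 3 pools held 1 mouse of each group, marked by hashtag antibodies and run as 1 library, which gave 3 mice per group and 9 in all. The labels name no engineered allele in any group.

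p53 is a transcription factor that is kept low by the ubiquitin ligase MDM2 and accumulates when DNA is damaged, when ribosome assembly is disturbed or when nucleotides run short. It then raises genes that halt the cell cycle, feed back on p53, or bring on apoptosis. In bone marrow this response is known for setting how well stem and progenitor cells survive cytotoxic and metabolic stress. Transcripts of these genes can also be set by other factors, and protein was not measured here.

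The proximal promoters of 4 members are shown because they hold letters of the p53 recognition sequence, which is made of 2 half-sites of 10 bases. RefSeq windows of GRCm38.p6, from 250 bases before to 50 bases after a transcription start, were read for 8 of the 10 members, in 11 windows, and those of Pmaip1 and Trp53inp1 were not used here. A half-site with no mismatch was present in 4 of these 11 windows (36.36%), each of another gene, against 8.356% of all 32851 windows (2745 windows). A pair of half-sites, at most 13 bases apart with at most 2 mismatches in the pair and 1 in a half-site, was present in 2.709% of all windows and in windows of Cdkn1a and Ccng1. The half-site reads as the same pattern on both strands. The bases before the start are printed for these genes, 5′ to 3′ on the gene's strand, with the half-sites in capitals.
Cdkn1a, chr17:29090729-29090978, plus strand: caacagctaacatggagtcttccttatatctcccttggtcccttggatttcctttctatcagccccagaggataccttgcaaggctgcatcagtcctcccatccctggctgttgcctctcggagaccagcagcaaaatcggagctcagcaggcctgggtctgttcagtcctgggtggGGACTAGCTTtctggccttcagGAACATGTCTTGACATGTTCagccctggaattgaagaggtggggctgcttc
Ccng1, chr11:40755287-40755536, minus strand: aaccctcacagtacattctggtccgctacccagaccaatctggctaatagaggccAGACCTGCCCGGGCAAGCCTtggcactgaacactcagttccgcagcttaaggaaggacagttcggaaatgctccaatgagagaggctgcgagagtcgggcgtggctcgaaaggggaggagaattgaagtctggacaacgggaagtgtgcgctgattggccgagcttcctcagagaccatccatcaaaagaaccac
Mdm2, chr10:117710759-117711008, minus strand: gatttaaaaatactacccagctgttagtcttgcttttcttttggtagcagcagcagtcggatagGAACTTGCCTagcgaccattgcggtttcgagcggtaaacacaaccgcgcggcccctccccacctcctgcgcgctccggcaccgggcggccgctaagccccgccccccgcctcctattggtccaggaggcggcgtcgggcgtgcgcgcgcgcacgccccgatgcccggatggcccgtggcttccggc
Bax, chr7:45466899-45467148, minus strand: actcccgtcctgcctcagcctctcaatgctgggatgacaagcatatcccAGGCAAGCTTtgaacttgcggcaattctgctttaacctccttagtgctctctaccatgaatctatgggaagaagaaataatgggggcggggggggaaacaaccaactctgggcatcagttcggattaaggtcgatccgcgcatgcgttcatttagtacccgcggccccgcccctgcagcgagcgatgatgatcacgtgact
In Cdkn1a the half-sites GGACTAGCTT, GAACATGTCT and TGACATGTTC began at positions -73, -51 and -41 from the start, the last with 1 mismatch, and the middle one belonged to both pairs of this window. In Ccng1 the half-site AGACCTGCCC (1 mismatch) was followed directly by GGGCAAGCCT. The single half-sites GAACTTGCCT of Mdm2 and AGGCAAGCTT of Bax began at -186 and -201. The windows of Bbc3, Phlda3, Sesn2 and Eda2r and a second window of Cdkn1a held no match, which says only that these letters are not in those windows. That second window (chr17:29093519-29093818) lies around another transcription start, farther along the gene. The positions given for Cdkn1a are thus counted from its upstream start only. A match describes the sequence and is not evidence of binding.

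The pools held 11441 to 14297 barcodes with 100700982 to 135564079 gene UMIs (unique molecular identifiers, 1 per captured transcript). Between 38 and 48 barcodes were shared by a pair of pools. Between 41.6% and 52.26% of barcodes could be given to 1 hashtag, which left 382 to 2780 singlet cells per mouse after quality filters. Granulocyte-monocyte progenitors (GMPs) were taken as singlets with high Ms4a3, the marker the study used, and numbered 88 to 177 in NTB mice, 95 to 1017 in vehicle-treated mice and 653 to 806 in BRQ-treated mice. The other cells were grouped by clustering and marker genes, without the members in the clustering. Kit itself was at 221 ± 51.79 CPM (UMI counts scaled to a common library size, mean ± SD over 8 mice) in HSC/MPP-like cells (the class of stem cell and multipotent progenitor markers), 61.27 ± 16.63 in GMPs (9 mice) and 46.99 ± 50.21 in neutrophil-like cells (9 mice), where it was at 133.6 ± 91.59 in cluster 2 (8 mice) and at 11.28 ± 5.046 and 8.719 ± 6.585 in clusters 3 and 8. Classes with little Kit were thus present, and no unsorted marrow was compared. Levels are given below as CPM after TMM scaling (a scaling that evens out composition between samples), 1 value per mouse in the order of pools 1, 2 and 3. Members were compared with edgeR's quasi-likelihood test on UMIs summed per mouse, and a difference was called at a Benjamini-Hochberg adjusted p under 0.05 over all genes of that fit.

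Cdkn1a, which encodes the cyclin-dependent kinase inhibitor p21 that holds cells in G1, was higher in BRQ-GMPs than in Veh-GMPs. Its level was 1.09, 1.25 and 1.93 CPM in NTB-GMPs, 2.08, 1.88 and 2.33 in Veh-GMPs and 5.46, 3.57 and 15.9 in BRQ-GMPs. Every BRQ-treated mouse lay above every other mouse, and the mouse of pool 3 was the highest by a wide margin. The log2 fold change of BRQ-GMPs over Veh-GMPs was 2.00 (SE 0.433, adjusted p = 0.00314, n = 3 mice per group), and within pools 1, 2 and 3 the ratio was 2.625, 1.899 and 6.824. Without the BRQ-treated mouse of pool 3 the log2 fold change was 1.11 (adjusted p = 0.0091), and without the vehicle-treated mouse of pool 1, which gave 1017 of the 1401 Veh-GMPs, it was 1.94 (adjusted p = 0.0627). Against NTB-GMPs the log2 fold change was 2.48 (SE 0.74, adjusted p = 0.0475). That last call rested on few counts, because the NTB-GMPs held 7 Cdkn1a UMIs in all. It was lost when any one of 7 mice was left out (each NTB mouse, adjusted p = 0.128, 0.192 and 0.166, each vehicle-treated mouse, 0.0569, 0.0723 and 0.0563, or the BRQ-treated mouse of pool 3, 0.0707), with hashtag calls from tag ratios (1.54, adjusted p = 0.116) and without likely doublets (2.41, adjusted p = 0.0522). It was also lost in GMPs of cluster 1 alone, a split described below, and in 10 of 18 alternatives in all. With the pool as a block the adjusted p of Cdkn1a was 9.1e-07 against Veh-GMPs and 0.000132 against NTB-GMPs.

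**Figure D1:**
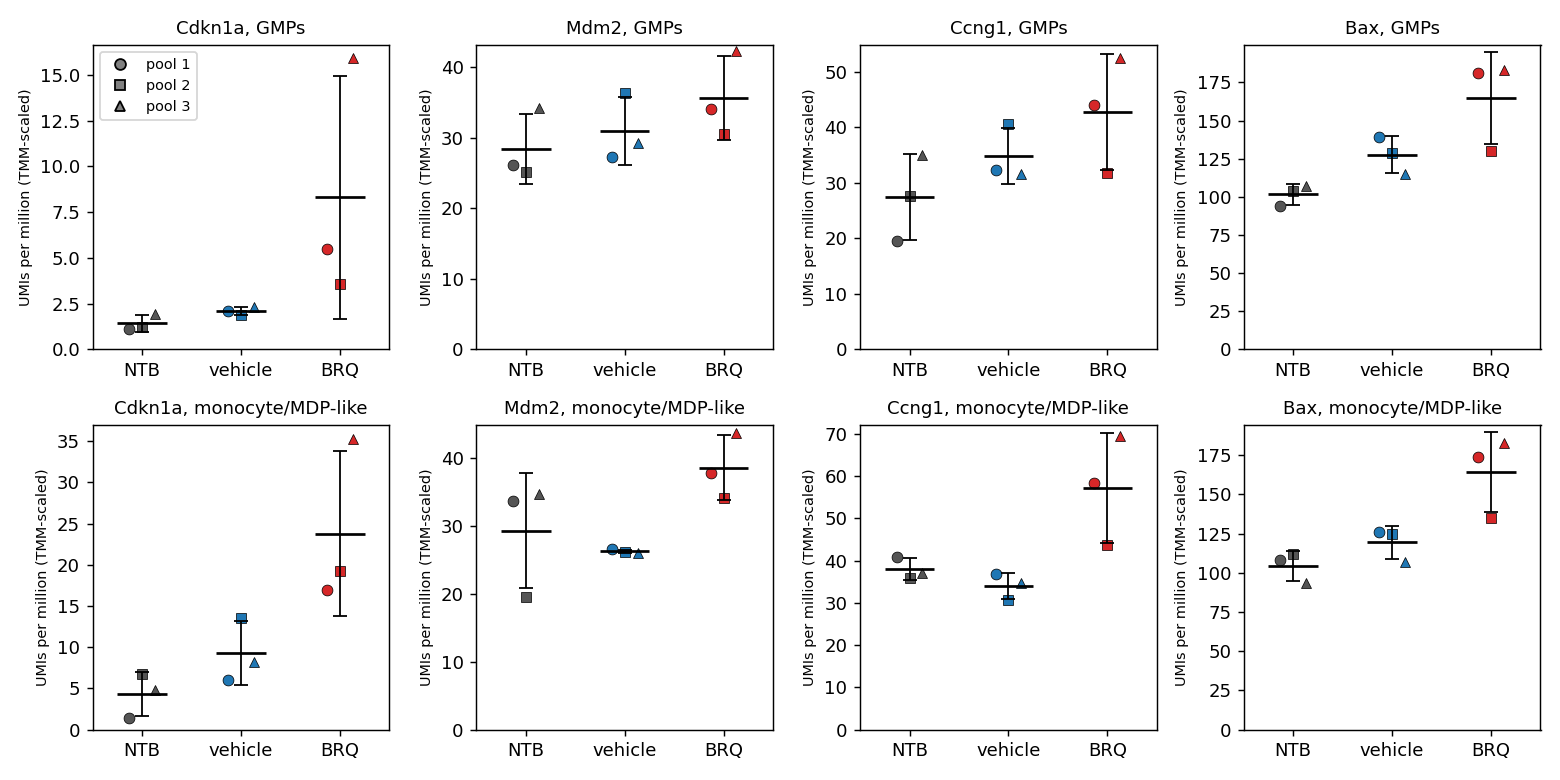
Levels of Cdkn1a, Mdm2, Ccng1 and Bax (CPM, TMM-scaled, linear axes) in GMPs (top) and monocyte/MDP-like cells (bottom), with 1 point per mouse shaped by pool and bars for the mean ± SD of 3 mice. In GMPs the BRQ-treated mice reached 3.57 to 15.9 for Cdkn1a against at most 2.33 in the other mice, and in monocyte/MDP-like cells the BRQ-treated mice lay above the vehicle-treated mice for all of the genes shown.

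Few GMPs held a Cdkn1a UMI in any group. When each cell was thinned to 5000 UMIs, Cdkn1a was seen in 27 of 782, 8 of 639 and 43 of 636 BRQ-GMPs (3.453%, 1.252% and 6.761%). It was seen in 10 of 993, 0 of 89 and 0 of 278 Veh-GMPs and in 1 of 82, 1 of 121 and 0 of 159 NTB-GMPs, where a count of 0 allows shares of up to 3.371%, 1.079% and 1.887%. The thinned cells with a Cdkn1a UMI were thus mostly BRQ-GMPs. The mean share was 3.822% ± 2.773 in BRQ-GMPs (SD, n = 3 mice), 0.3357% ± 0.5814 in Veh-GMPs and 0.6821% ± 0.6227 in NTB-GMPs. No order was read between NTB-GMPs, at no more than 1 such cell per mouse, and Veh-GMPs, where all 10 such cells came from the mouse of pool 1. Without thinning the means were 8.912%, 3.025% and 1.437% in the same order of groups, at median depths of 12168.5 to 15795, 14737 to 17966 and 10828.5 to 11581 UMIs per GMP. The most Cdkn1a UMIs in 1 GMP was 13, in the BRQ-treated mouse of pool 3. No cell class here is known to lack Cdkn1a, so a background share from free RNA was not measured. Bax was seen in far more cells, in 55.95% ± 6.782 of thinned BRQ-GMPs, 44.77% ± 3.988 of Veh-GMPs and 41% ± 6.02 of NTB-GMPs.

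Mdm2, which encodes the ligase that returns p53 to low levels, did not pass the test in GMPs. Its level was 26.2, 25.1 and 34.2 CPM in NTB-GMPs, 27.3, 36.4 and 29.3 in Veh-GMPs and 34.1, 30.6 and 42.3 in BRQ-GMPs. The groups overlapped, and BRQ exceeded vehicle in pools 1 and 3 but not in pool 2. The log2 fold change over Veh-GMPs was 0.29 (SE 0.128, adjusted p = 0.151), and with the pool as a block it passed (0.29, adjusted p = 0.0402). Ccng1, which encodes cyclin G1, a partner of a phosphatase that acts on MDM2, did not pass either, with 19.6, 27.6 and 35.1 in NTB-GMPs, 32.3, 40.7 and 31.6 in Veh-GMPs and 44, 31.8 and 52.6 in BRQ-GMPs. The BRQ-treated mouse of pool 2 lay within the range of Veh-GMPs. Its log2 fold change was 0.37 (SE 0.148, adjusted p = 0.109) over Veh-GMPs and 0.57 (adjusted p = 0.0854) over NTB-GMPs, and with the pool as a block the adjusted p was 0.00898 and 0.0135. Of 20 alternatives, the block included, Ccng1 was called in 3 over Veh-GMPs and in 6 over NTB-GMPs, in both without the BRQ-treated mouse of pool 2 (0.53, adjusted p = 0.00884, and 0.73, adjusted p = 0.00693).

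Bax, the pore-forming effector of mitochondrial apoptosis, was higher in BRQ-GMPs than in either other group. Its level was 93.7, 104 and 107 CPM in NTB-GMPs, 139, 129 and 115 in Veh-GMPs and 181, 130 and 183 in BRQ-GMPs. BRQ-GMPs lay above all NTB-GMPs, but the BRQ-treated mouse of pool 2 lay within the range of Veh-GMPs. The log2 fold change was 0.69 over NTB-GMPs (SE 0.125, adjusted p = 0.00226) and 0.37 over Veh-GMPs (SE 0.109, adjusted p = 0.0268), with ratios of 1.302, 1.008 and 1.591 to vehicle within the pools. The call against Veh-GMPs was lost without the vehicle-treated mouse of pool 2 (0.37, adjusted p = 0.0753) or pool 3 (0.29, adjusted p = 0.157) and without the BRQ-treated mouse of pool 1 (0.29, adjusted p = 0.127). It was also lost under DESeq2 (0.37, adjusted p = 0.0652) and in 8 of 20 alternatives in all, among them an Ms4a3 limit of 2.5 (0.34, adjusted p = 0.0603) and GMPs taken as GMP-like clusters (0.32, adjusted p = 0.0868), and with the pool as a block its adjusted p was 0.000416. Veh-GMPs stood above NTB-GMPs by 0.32 on the log2 scale (adjusted p = 0.118), with no overlap between the mice, as for 15.2% of all genes.

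The BH3-only genes Bbc3 (PUMA) and Pmaip1 (NOXA), whose products promote apoptosis, were sparse in GMPs. Bbc3 had 3 UMIs in all NTB-GMPs, 17 in Veh-GMPs and 76 in BRQ-GMPs and did not pass the filter on low counts. Its level was 0.672, 1.25 and 0.971 CPM in Veh-GMPs and 1.64, 1.62 and 3.42 in BRQ-GMPs, without overlap. The NTB-GMPs were at the detection floor of 3 UMIs, so no fold change was taken against them. Pmaip1 showed another order, with 0, 1.88 and 0.481 in NTB-GMPs, 2.35, 4.39 and 5.05 in Veh-GMPs and 1.64, 1.95 and 5.89 in BRQ-GMPs. Veh-GMPs lay above all NTB-GMPs, and the BRQ-GMPs spanned both. The log2 fold change of Veh-GMPs over NTB-GMPs was 1.94 (SE 0.911, adjusted p = 0.179), and with the pool as a block it was 2.25 (adjusted p = 0.017). Against NTB-GMPs, BRQ-GMPs stood at 1.89 (adjusted p = 0.225, with the block 1.98 and 0.0416), and BRQ against vehicle gave -0.06 with an interval of -1.08 to 0.97.

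The remaining members in GMPs were Phlda3, whose product competes with AKT for membrane lipids, Trp53inp1, which encodes a nuclear cofactor of p53 that also takes part in autophagy, Sesn2, an inhibitor of mTORC1, and Eda2r, a receptor of the TNF family. Phlda3 had no UMI in NTB-GMPs, 2 in Veh-GMPs and 18 in BRQ-GMPs, at 0.273, 0.433 and 0.876 CPM in the BRQ-treated mice. The 4712646 UMIs of NTB-GMPs allow up to 0.6366 CPM of Phlda3 (3 counts), which covers the range of pools 1 and 2 under BRQ, so no fold change was taken. Eda2r had 0, 2 and 6 UMIs in NTB-, Veh- and BRQ-GMPs and 32 in all cells, and is not compared further. Trp53inp1 was at 5.45, 5.02 and 8.18 in NTB-GMPs, 3.36, 6.27 and 4.47 in Veh-GMPs and 5.55, 6.06 and 7.01 in BRQ-GMPs. These overlapped, with a log2 fold change of BRQ over vehicle of 0.64 (SE 0.233, adjusted p = 0.0745). Sesn2 gave 0.27 in the same comparison (adjusted p = 0.737, interval -0.74 to 1.28), from levels of 1.41, 2.51 and 2.33 in Veh-GMPs and 1.55, 1.19 and 3.5 in BRQ-GMPs.

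Over the 7 members that passed the filter in GMPs, 2 were called in BRQ against vehicle (Cdkn1a and Bax, both higher), against 13.4% of all 10331 genes tested. The median log2 fold change of these 7 was 0.37, against 0.00 for all genes, and 1 of the 7, Cdkn1a, had every BRQ-treated mouse above every vehicle-treated mouse, against 15.3% of all genes. In BRQ against NTB 2 of 7 were called (Cdkn1a and Bax), against 6.01% of all genes. For vehicle against NTB none of the 7 was called, where 11.3% of all genes were. There 2 members, Bax and Pmaip1, had an unadjusted edgeR p under 0.05, DESeq2 called 0, the fit with the pool as a block called 1 (Pmaip1, against 16.4% of all genes), and without the BRQ-treated mouse of pool 2 Bax was called (0.32, adjusted p = 0.0449). With the pool as a block 4 members were called in BRQ against vehicle (Cdkn1a, Bax, Mdm2 and Ccng1, against 20.4% of all genes) and 4 in BRQ against NTB (Cdkn1a, Bax, Ccng1 and Pmaip1, against 11.8%). The comparisons share mice, so their calls are not independent.

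**Figure D2:**
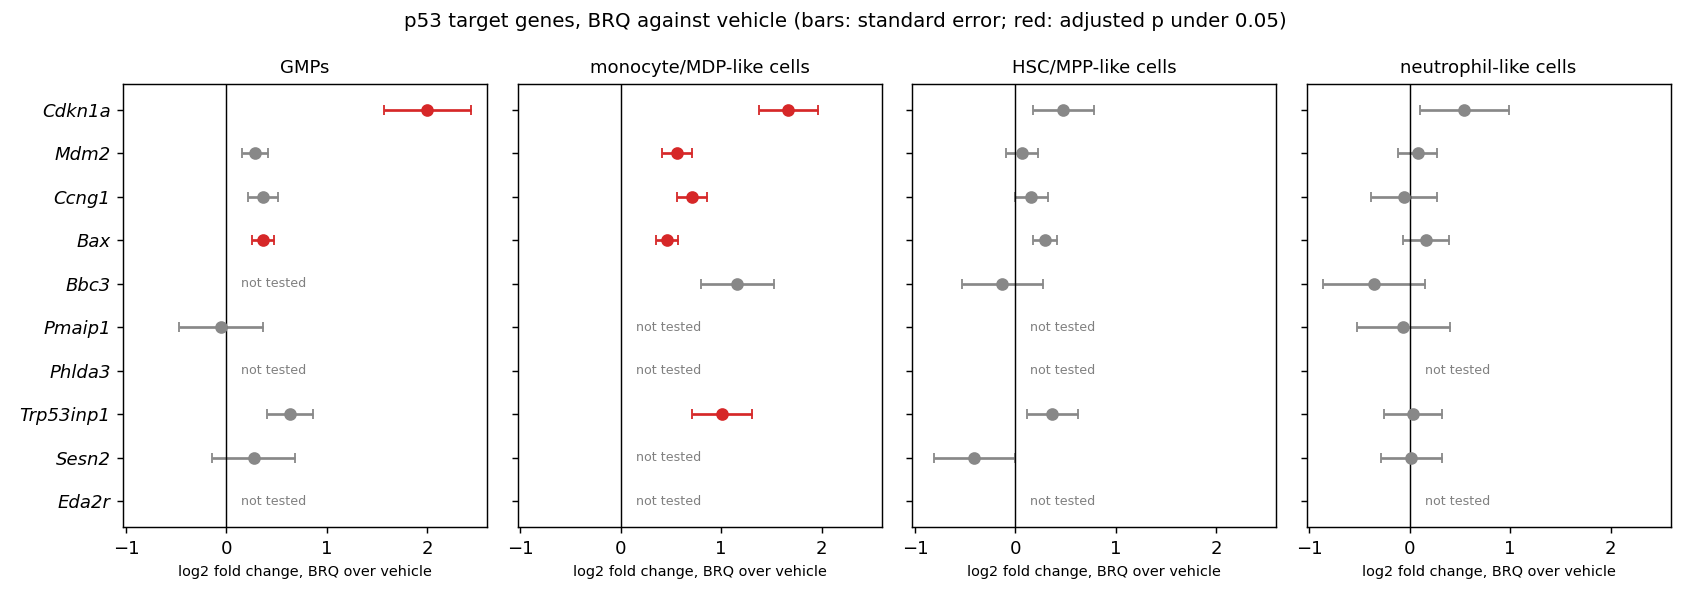
Log2 fold change of BRQ over vehicle for each member that was tested, with SE bars, in GMPs, monocyte/MDP-like, HSC/MPP-like and neutrophil-like cells, with red for an adjusted p under 0.05. Cdkn1a (2.00) and Bax (0.37) were called in GMPs, 5 members were called in monocyte/MDP-like cells, and none in HSC/MPP-like or neutrophil-like cells.

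The composition of the GMP selection also differed between groups. Cluster 1 held 18.18% to 21.48% of NTB-GMPs, 36.84% to 39.45% of Veh-GMPs and 48.88%, 46.49% and 71.36% of BRQ-GMPs, and most other GMPs were in cluster 0. In GMPs of cluster 1 alone, a split chosen after seeing the data, Cdkn1a (1.73, adjusted p = 0.00444), Bax (0.44, adjusted p = 0.0126), Mdm2 (0.55, adjusted p = 0.026) and Trp53inp1 (1.26, adjusted p = 0.0299) were called higher in BRQ than vehicle, 4 of 6 members tested against 12.1% of all 9252 genes. In GMPs of cluster 0 alone Bax gave 0.27 (adjusted p = 0.13), and Cdkn1a did not pass the filter on low counts. In BRQ against NTB, Bax was the only member called in GMPs of cluster 1 alone, and Cdkn1a was not called there. Markers of other cells moved as well: the summed level of 9 monocyte/MDP markers was 54.86 to 71.54 CPM in NTB- and Veh-GMPs and 99.99 to 151.9 in BRQ-GMPs, with no marker at 0. The 10 HSC/MPP markers were at 47.54 to 63.15 and 89.72 to 111.4, and the 8 basophil/mast markers, 1 of them at 0, were at 81.85 to 156.8 and 179.3 to 197.3. The 8 stromal/endothelial markers were at 2.004 to 5.661 and 7.341 to 12.02. The 8 macrophage markers were at 273.4 to 312.6 in NTB-GMPs and 161.2 to 175.1 in Veh-GMPs, and at 65.61 to 196.9 in BRQ-GMPs, which spanned the vehicle range. The 12 neutrophil markers were at 46165 to 49619, 33519 to 37271 and 26152 to 37523 in the same order of groups. Between BRQ-GMPs and Veh-GMPs the 10 erythroid/MEP markers (80.43 to 118.2 against 121 to 136.3), 6 eosinophil markers (18.31 to 31.48 against 12.04 to 12.63), 9 B cell markers (37.76 to 49.92 against 30.67 to 35.82) and 6 lymphoid progenitor markers (2.002 to 2.937 against 0.377 to 1.929) did not overlap either. Their part in the levels of the members was not tested.

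Other genes of the pathway were counted in GMPs from lists whose choice is described with the processing. Of 35 other p53 targets, 27 were tested, and in BRQ against vehicle 2 were higher, where 6.08% of all genes were (Xpc, a damage sensor of nucleotide excision repair, 0.30, adjusted p = 0.0116, and Polk, a translesion polymerase, 0.53, adjusted p = 0.0271). From the same list 1 was lower (Ddb2, another damage sensor of that repair pathway, -0.86, adjusted p = 0.0309), so that 3 of 27 were called, a share no larger than the 13.4% of all genes. The list's median was 0.05. Of 17 regulators of p53, 16 were tested and 3 called, near the share of all genes, with Ep300 higher (0.35) and the ribosomal genes Rpl5 (-0.44) and Rpl11 (-0.39) lower, and a median of 0.01. Trp53 itself gave 0.14 (adjusted p = 0.353), at 92.2 CPM in BRQ-GMPs and 83.5 in Veh-GMPs, and Mdm4, the other brake on p53, gave 0.12 (adjusted p = 0.495). Among 17 tested G1 regulators 3 were called, again near that share. Cdkn2c (0.96) and Rb1 (0.48), both brakes on G1, were higher and Pcna, the replication clamp, was lower (-0.36). Sesn2 is also a target of the integrated stress response, and a list of that response had 7 of 13 tested genes lower in BRQ against vehicle, where 7.37% of all genes were lower. Among them were Atf4 (-0.54) and Atf5 (-0.89), transcription factors of that response, Asns (-0.50) and Aars (-0.45), and the list's median was -0.30. In vehicle against NTB 7 genes of the same list were higher, where 6.63% of all genes were, with Atf4 at 0.53, Psat1 at 0.71 and Mthfd2 at 0.76, and a median of 0.48.

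Between vehicle and NTB, where 11.3% of all genes were called, 1 of 27 other p53 targets was higher in GMPs (Rps27l, a paralog of a ribosomal protein gene, 0.48), and none of 16 regulators was called. Of 14 tested BCL2 partners 2 were called, the apoptosis genes Cycs (0.64) and Bak1 (0.47), both higher. Of 17 G1 regulators 3 were called, with the kinase Cdk4 (0.44) higher and Cdkn2c (-1.43) and Rb1 (-0.51) lower. Between BRQ and NTB, where 6.01% of all genes were called, each of 4 lists had 1 call, with Rps27l (0.47) of 27, Cycs (0.44) of 14 and Psat1 (0.57) of 13 higher and Rpl5 (-0.47) of 16 lower, and none of 17 G1 regulators was called. The medians of these lists in BRQ against NTB lay between -0.01 and 0.12.

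The 5 members called in BRQ against vehicle in monocyte/MDP-like cells were the most of any class without the block, while with the pool as a block 4 were called both here and in GMPs, and no test compared the classes. The class was led by Ms4a6c, Irf8 and F13a1 and made of 40 to 337 cells per mouse. In BRQ against vehicle 5 of its 6 tested members were called higher, against 5.44% of all 9345 genes tested. All 6 had every BRQ-treated mouse above every vehicle-treated mouse, against 12.1% of all genes, and their median log2 fold change was 0.86 against 0.00 for all genes. DESeq2 called 2 of the 5, Ccng1 and Bax, gave Mdm2 an adjusted p of 0.0922 and gave none for Cdkn1a or Trp53inp1.

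Cdkn1a in these cells was at 1.46, 6.72 and 4.87 CPM in NTB mice, 6.04, 13.6 and 8.16 in vehicle-treated mice and 16.9, 19.2 and 35.3 in BRQ-treated mice. The BRQ-treated mice stood above all others. NTB and vehicle overlapped across pools, with ratios of vehicle to NTB of 4.137, 2.024 and 1.676 within pools 1, 2 and 3. The log2 fold change was 1.67 over vehicle (SE 0.293, adjusted p = 0.000982, or 1.29 and 0.0716 without the vehicle-treated mouse of pool 1) and 2.26 over NTB (SE 0.393, adjusted p = 0.00165). Thinned to 5000 UMIs, a Cdkn1a UMI was seen in 10.19% ± 3.977 of the cells of BRQ-treated mice (SD, n = 3 mice), 4.736% ± 3.173 of vehicle and 1.707% ± 1.534 of NTB, and unthinned in 22.21%, 14.04% and 5.395%. In the BRQ-treated mouse of pool 2 a single cell held 18 of the 104 Cdkn1a UMIs. Mdm2 was at 33.6, 19.5 and 34.7 in NTB mice, 26.5, 26.1 and 26 with vehicle and 37.8, 34.1 and 43.6 with BRQ. Here the vehicle-treated mice were low and tight, and the log2 fold change was 0.56 over vehicle (SE 0.151, adjusted p = 0.0286). This call was lost without any one vehicle-treated mouse (adjusted p = 0.156, 0.0769 and 0.0773) and without the BRQ-treated mouse of pool 1 (0.0518) or pool 3 (0.101).

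Ccng1 was at 40.9, 36 and 37.1 CPM in NTB mice, 36.8, 30.6 and 34.7 with vehicle and 58.3, 43.7 and 69.6 with BRQ. BRQ lay above both other groups, and the call over vehicle (0.71, SE 0.145, adjusted p = 0.00438) held with each of the 9 mice left out in turn. Over NTB it was 0.62 (adjusted p = 0.038) and was lost without any one NTB mouse (0.0797, 0.223 and 0.153), the vehicle-treated mouse of pool 2 (0.0517) or the BRQ-treated mouse of pool 1 (0.0782) or pool 3 (0.192). Bax was at 108, 112 and 93.7 in NTB mice, 126, 125 and 107 with vehicle and 174, 135 and 183 with BRQ, again without overlap between BRQ and the others. Its log2 fold change was 0.46 over vehicle (SE 0.109, adjusted p = 0.0127), lost without the vehicle-treated mouse of pool 3 (0.39, adjusted p = 0.0771) or the BRQ-treated mouse of pool 1 (0.42, 0.0514) or pool 3 (0.38, 0.0542). Over NTB it was 0.66 (SE 0.119, adjusted p = 0.00244), and this call held with each mouse left out.

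Trp53inp1 in monocyte/MDP-like cells was at 2.92, 3.05 and 3.65 CPM in NTB mice, 4.87, 3.4 and 3.06 with vehicle and 7.02, 11.2 and 7.34 with BRQ. A single cell held 16 of the 61 Trp53inp1 UMIs of the BRQ-treated mouse of pool 2. The groups with and without BRQ did not overlap, but the call over vehicle (1.01, SE 0.299, adjusted p = 0.0458) was near the threshold. It held without the NTB mouse of pool 3 and without the BRQ-treated mouse of pool 3, and was lost without any of the other 7 mice (adjusted p up to 0.216) and with the pool as a block (0.92, adjusted p = 0.0526). Over NTB it was 1.36 (adjusted p = 0.0588, with the block 1.39 and 0.029). Bbc3 was at 2.53, 3.4 and 2.55 in vehicle and 5.4, 5.53 and 6.78 in BRQ-treated mice, a log2 fold change of 1.16 (SE 0.365, adjusted p = 0.0615, or 0.043 without the NTB mouse of pool 3). Phlda3 was at 0, 1.22 and 0.608 in NTB mice, 0.584, 0 and 1.02 with vehicle and 3.78, 5.34 and 4.66 with BRQ, where a single cell held 7 of the 29 Phlda3 UMIs of pool 2. It did not pass the filter on low counts with all mice, although all BRQ-treated mice lay above the rest.

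In BRQ against NTB, 3 of the 6 members tested in monocyte/MDP-like cells were called (Cdkn1a, Ccng1 and Bax), against 3.02% of all genes, and Ccng1 was not called by DESeq2 (0.125). In vehicle against NTB edgeR and DESeq2 called 0 of 6, none of which had an unadjusted edgeR p under 0.05, against 2.94% of all genes called by edgeR. Trp53 gave -0.11 (adjusted p = 0.568) and Mdm4 0.08 (adjusted p = 0.731) in BRQ against vehicle. Of the 23 other p53 targets tested in that comparison none was higher and Tigar, a regulator of glycolysis, was lower (-0.60, adjusted p = 0.0424), with a median of 0.15. No regulator and no BCL2 partner was called, Rbl2, a relative of Rb1, was higher (0.48) and Slc3a2, an amino acid transporter chain, was lower (-0.55). Within this class the 10 HSC/MPP markers summed to 261.1 to 373.9 CPM in NTB, 261.4 to 314.1 in vehicle and 370.4 to 395.4 in BRQ-treated mice. The 9 monocyte/MDP markers summed to 1860 to 2523, 1639 to 2095 and 2150 to 2377. The 8 T/NK markers, 2 of them at 0, summed to 182.7 to 222.5, 121.1 to 186.4 and 224.2 to 243.2. Their part in these results was not tested.

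GMP-like cells outside the GMP selection, other cells of the same mice, also had higher Cdkn1a with BRQ. Here too the clusters shifted, with cluster 1 holding 36.4% of these cells in NTB, 58.3% in vehicle and 70% in BRQ-treated mice (cells summed over mice), and its part in the changes was not tested. Cdkn1a was at 0.998, 0.405 and 1.09 CPM in NTB mice, 3.1, 2.32 and 2.63 with vehicle and 7.75, 3.9 and 16.7 with BRQ. The groups did not overlap at any step. Of all genes in this class, 16.1% rose without overlap from NTB to vehicle, and 12.2% from vehicle to BRQ. For Cdkn1a the log2 fold change was 1.78 over vehicle (SE 0.415, adjusted p = 0.00856) and 3.46 over NTB (SE 0.584, adjusted p = 0.000211). The first was lost without the vehicle-treated mouse of pool 1 (1.92, adjusted p = 0.0784) or the BRQ-treated mouse of pool 3 (0.98, adjusted p = 0.0933). DESeq2 gave no adjusted p for the first and called the second (3.49, adjusted p = 0.00014). Over vehicle 1 of 6 members tested was called, against 6.47% of all genes, and with the pool as a block Ccng1 (0.43, adjusted p = 0.00783) and Bax (0.34, adjusted p = 0.0158) were added. Over NTB 3 of 6 were called, against 13.8% of all genes (Cdkn1a, Ccng1 at 0.67 and Bax at 0.87), and all held with each mouse left out. The fold change of Cdkn1a over NTB rested on 7 UMIs in the NTB mice and ran from 2.67 to 4.02 on the log2 scale as mice were left out.

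These GMP-like cells had 2 of 6 members called in vehicle against NTB, against 18.5% of all genes. Bax was higher, at 124, 109 and 107 CPM in vehicle against 99.8, 77.4 and 67.1 in NTB (0.57, adjusted p = 0.00561, lost without NTB pool 3, 0.104, or the vehicle-treated mouse of pool 1, 0.0693). Trp53inp1 was lower (-1.02, adjusted p = 0.0349), lost without the NTB mouse of pool 2 (0.12) or pool 3 (0.118) or the vehicle-treated mouse of pool 1 (0.291) or pool 3 (0.0549). DESeq2 gave Trp53inp1 no adjusted p in this comparison. With the pool as a block Cdkn1a was called as well (1.73, adjusted p = 0.0266, against 1.68 and 0.139 without it).

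In HSC/MPP-like cells the vehicle-treated mouse of pool 2 had 14 cells and was left out. Bax was at 49.3, 52.4 and 53.1 CPM in NTB, 79.9 and 68.9 in vehicle (pools 1 and 3) and 90.6, 93.9 and 97.4 in BRQ-treated mice. In this class 16.2% of all genes rose without overlap from NTB to vehicle, and 11.9% from vehicle to BRQ. Bax stepped up from NTB to vehicle to BRQ without overlap. So did the 8 GMP markers in this class, at 4107 to 6245, 6799 to 7116 and 7945 to 9855 CPM, while the 10 HSC/MPP markers were at 2372 to 2472 in NTB and 1608 to 1752 in tumor-bearing mice, with none of either list at 0. The 10 erythroid/MEP markers (240.3 to 299.5 against 168.6 to 191.3) and 10 dendritic cell markers (209 to 226.2 against 151.6 to 177.2) were also lower in tumor-bearing mice. From vehicle to BRQ the 12 neutrophil markers (1681 to 3152, then 3772 to 6405) and 6 eosinophil markers (6.157 to 8.431, then 8.645 to 13.11) rose without overlap. The 9 monocyte/MDP markers fell (252.9 to 280.8, then 176.2 to 198.5). Their part in the levels of the members was not tested. Bax was the member called in vehicle against NTB (0.56, SE 0.146, adjusted p = 0.0199, lost without the NTB mouse of pool 3, 0.58 and 0.0818, and under DESeq2, 0.565 and 0.0631), where 1 of 7 members against 6.06% of all genes were called. In BRQ against NTB it was called at 0.85 (SE 0.124, adjusted p = 4.74e-05), together with Cdkn1a at 1.26 (SE 0.346, adjusted p = 0.0203), which made 2 of 7 against 8.30% of all genes. Cdkn1a was at 5.8, 9.08 and 4.52 in NTB mice, 12.4 and 5.01 with vehicle and 12.3, 14.5 and 17.3 with BRQ, and its call was lost without the NTB mouse (0.93, adjusted p = 0.242) or the BRQ-treated mouse of pool 3 (1.11, adjusted p = 0.0747). DESeq2 gave Cdkn1a no adjusted p in BRQ against NTB. Between BRQ and vehicle edgeR and DESeq2 called 0 of the 7 members, against 0.0576% of all genes by edgeR. Bax alone had an unadjusted edgeR p under 0.05 (log2 fold change 0.30, interval -0.01 to 0.60). The interval of Cdkn1a was -0.31 to 1.27, and whether its change differed from that in GMPs was not tested.

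In erythroid/MEP-like cells only BRQ against NTB could be compared, with 3 against 2 mice, because the other mice had fewer than 20 cells. Phlda3 was at 3.67 and 4.28 CPM in NTB (pools 2 and 3), 12.4 in the vehicle-treated mouse of pool 1 and 18.1, 22.2 and 9.82 in BRQ-treated mice. All BRQ-treated mice lay above both NTB mice, as for 12.3% of all genes, with a log2 fold change of 2.02 (SE 0.433, adjusted p = 0.0224). Ccng1 was at 59.9 and 61.4 in NTB, 71.3 in the vehicle-treated mouse and 98.7, 90.5 and 93.9 in BRQ-treated mice (0.64, SE 0.147, adjusted p = 0.0408). Cdkn1a was at 4.89 and 1.78, 10.2, and 18.1, 10.6 and 9.82 in the same order (2.37, SE 0.542, adjusted p = 0.0382). These 3 of 7 members stood against 0.706% of all genes called. None was called by DESeq2, all 3 calls were lost without the BRQ-treated mouse of pool 1 (adjusted p = 0.215, 0.215 and 0.438), those of Phlda3 and Ccng1 also without that of pool 2 (0.0695 and 0.0524), and Cdkn1a with the pool as a block (1.83, adjusted p = 0.108) and with tag ratios (adjusted p = 0.263).

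**Figure D3:**
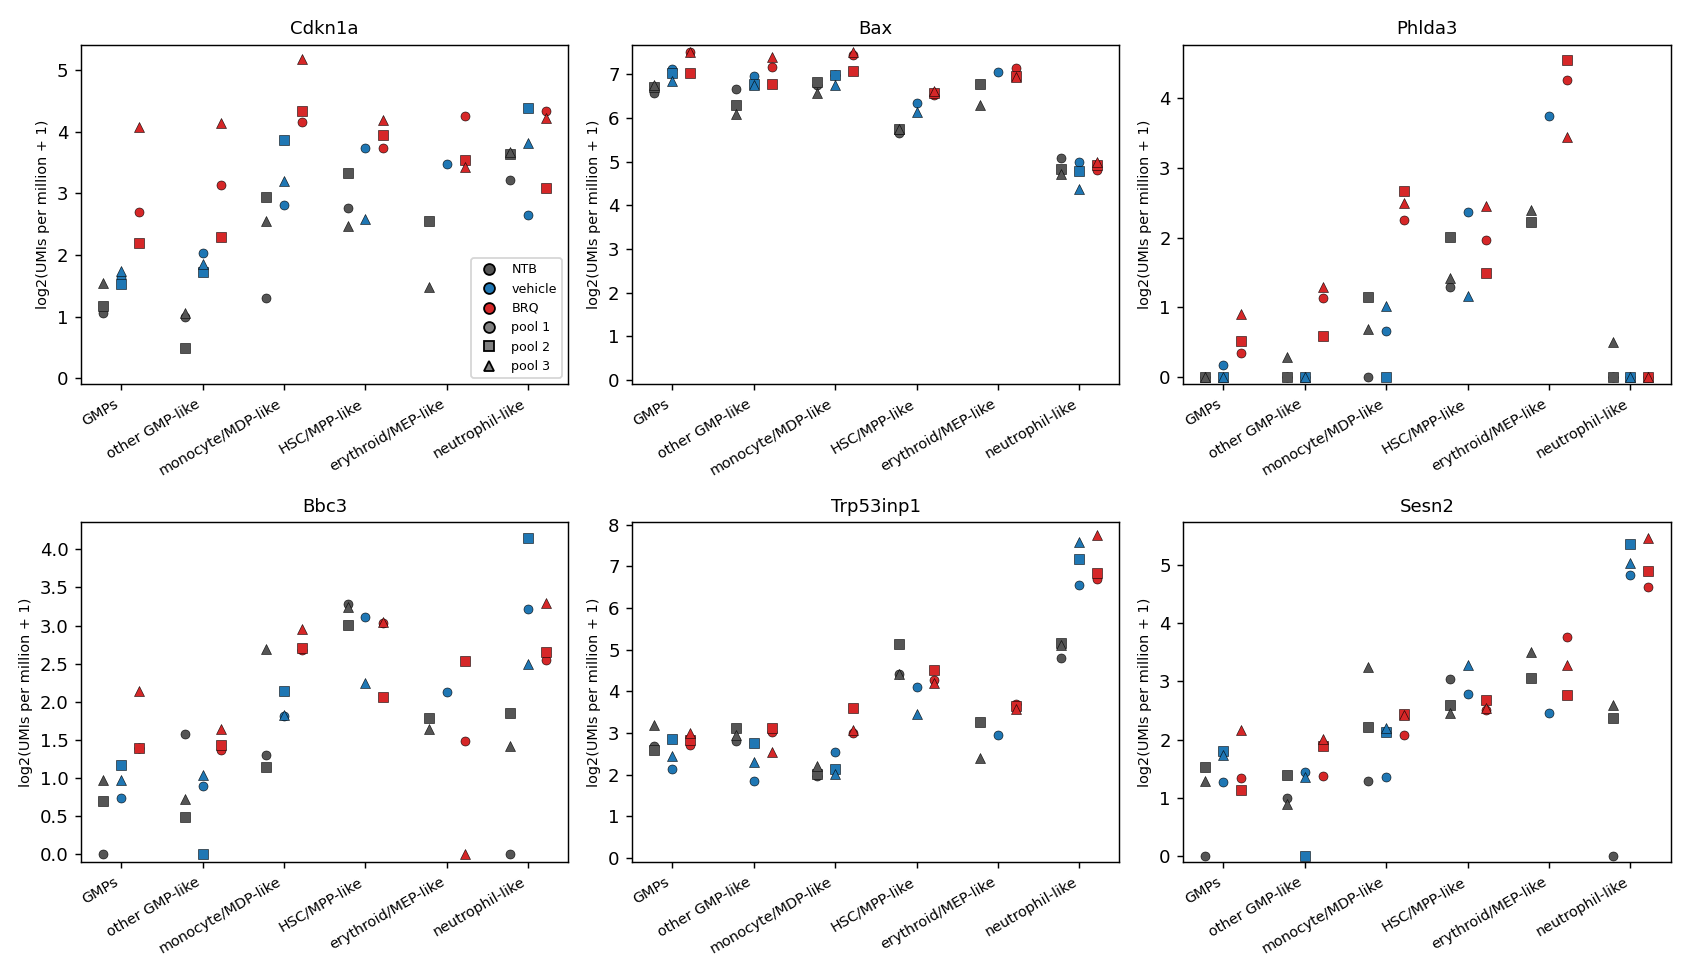
Levels of Cdkn1a, Bax, Phlda3, Bbc3, Trp53inp1 and Sesn2 as log2(CPM + 1) in 6 cell classes, with 1 point per mouse coloured by group. Trp53inp1 and Sesn2 were highest in neutrophil-like cells of tumor-bearing mice, Phlda3 in erythroid/MEP-like cells, and Bax was lowest in neutrophil-like cells.

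Neutrophil-like cells had another pattern, in which tumor-bearing mice differed from NTB mice with or without BRQ. Trp53inp1 was at 26.9, 35 and 33.4 CPM in NTB mice, 93, 143 and 190 with vehicle and 103, 114 and 216 with BRQ. Sesn2 was at 0, 4.18 and 5.01 in NTB mice, 27.2, 40 and 31.7 with vehicle and 23.6, 28.6 and 42.9 with BRQ. In both genes every tumor-bearing mouse lay above every NTB mouse, and vehicle and BRQ overlapped. Of all genes in this class, 22.5% had every vehicle-treated mouse above every NTB mouse, and 19.7% had every BRQ-treated mouse above every NTB mouse. In vehicle against NTB the log2 fold change was 2.11 for Trp53inp1 (SE 0.321, adjusted p = 0.000353) and 2.84 for Sesn2 (SE 0.384, adjusted p = 0.000142). In BRQ against NTB it was 2.14 (SE 0.312, adjusted p = 0.000542) and 2.85 (SE 0.358, adjusted p = 0.000264), and all of these calls held with each mouse left out. Bbc3 (2.10, adjusted p = 0.0165) and Pmaip1 (3.04, adjusted p = 0.00276) were also called in vehicle against NTB, from levels of 0, 2.61 and 1.67 against 8.32, 16.7 and 4.66 for Bbc3. For Pmaip1 the levels were 4.13, 3.66 and 0.626 in NTB and 12.1, 3.33 and 23.3 in vehicle, which overlapped. Bbc3 lost this call when the NTB mouse of pool 3 was left out (0.105), or the vehicle-treated mouse of pool 1 (0.0552) or pool 2 (0.0532).

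Thus 4 of 8 members tested in neutrophil-like cells were called in vehicle against NTB, against 28.7% of all 7764 genes, and 4 of 8 in BRQ against NTB, against 14.3%. In the latter Pmaip1 gave 2.97 (adjusted p = 0.00357, lost without the NTB mouse of pool 3, 1.92 and 0.0774), and Bbc3 gave 1.75 (adjusted p = 0.0477), which was kept without only 1 of the 9 mice, the vehicle-treated mouse of pool 3, and lost under DESeq2 (0.122). Between BRQ and vehicle edgeR called 0 of 8, against 0.116% of all genes, and none had an unadjusted p under 0.05. DESeq2 also called 0. Cdkn1a was at 5.29, 20 and 13.1 in vehicle and 19.3, 7.52 and 17.7 in BRQ-treated mice, and Bax at 31, 26.7 and 19.6 against 26.9, 29.3 and 30.7, with overlap in both.

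Whether a member changed by another amount in neutrophil-like cells than in GMPs was tested as an interaction with mouse as a term. From NTB to vehicle the change was larger in neutrophil-like cells for Trp53inp1, by 2.71 on the log2 scale (SE 0.424, adjusted p = 7.78e-05), and for Sesn2, by 2.58 (SE 0.83, adjusted p = 0.0291), which made 2 of 8 members against 21.4% of all 9497 genes. Between BRQ and NTB it was larger for Trp53inp1, by 2.26 (SE 0.397, adjusted p = 0.000828), 1 of 8 against 8.79% of all genes, and Sesn2 stood at 2.52 (SE 0.81, adjusted p = 0.0522). Between BRQ and vehicle edgeR called 0 of 8, against 2.39% of all genes, and 2 had an unadjusted p under 0.05, Cdkn1a (-1.14, adjusted p = 0.288) and Bbc3 (-1.68, adjusted p = 0.195). The rise of Cdkn1a with BRQ in GMPs was therefore not shown to differ from its change in neutrophil-like cells, where vehicle and BRQ overlapped.

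The neutrophil-like class was made of different clusters in the groups. Cluster 2, led by Wfdc17, Il1b and Cxcr2, held 8.642%, 9.565% and 4.51% of neutrophil-like cells in NTB mice, 67.16%, 83.74% and 87.39% in vehicle-treated mice and 47.02%, 39.4% and 75.18% in BRQ-treated mice. Its cells had a median depth of 0.167 of that of their own sample. Within cluster 2, a split chosen after seeing the data, Trp53inp1 was at 197 and 305 CPM in NTB (pools 2 and 3), 223, 253 and 273 in vehicle and 325, 376 and 394 in BRQ-treated mice. Vehicle lay within the range of NTB, with a log2 fold change of -0.04 (interval -0.78 to 0.71, adjusted p = 0.994), and BRQ lay above both, at 0.55 over vehicle (SE 0.16, adjusted p = 0.0879). In clusters 3 and 8 the log2 fold change of Trp53inp1 in vehicle against NTB was 0.04 (adjusted p = 0.992) and -0.04 (adjusted p = 0.984). Sesn2 in cluster 2 was at 109 and 119 in NTB mice, 75.9, 74 and 50.2 with vehicle and 105, 136 and 89.2 with BRQ, so that vehicle was the lowest group (-0.86 against NTB, adjusted p = 0.583). For BRQ against NTB the log2 fold change of Trp53inp1 was 0.52 in cluster 2 (adjusted p = 0.772), 0.45 in cluster 3 (adjusted p = 0.358) and 0.16 in cluster 8 (adjusted p = 0.825), against 2.14 over the whole class.

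**Figure D4:**
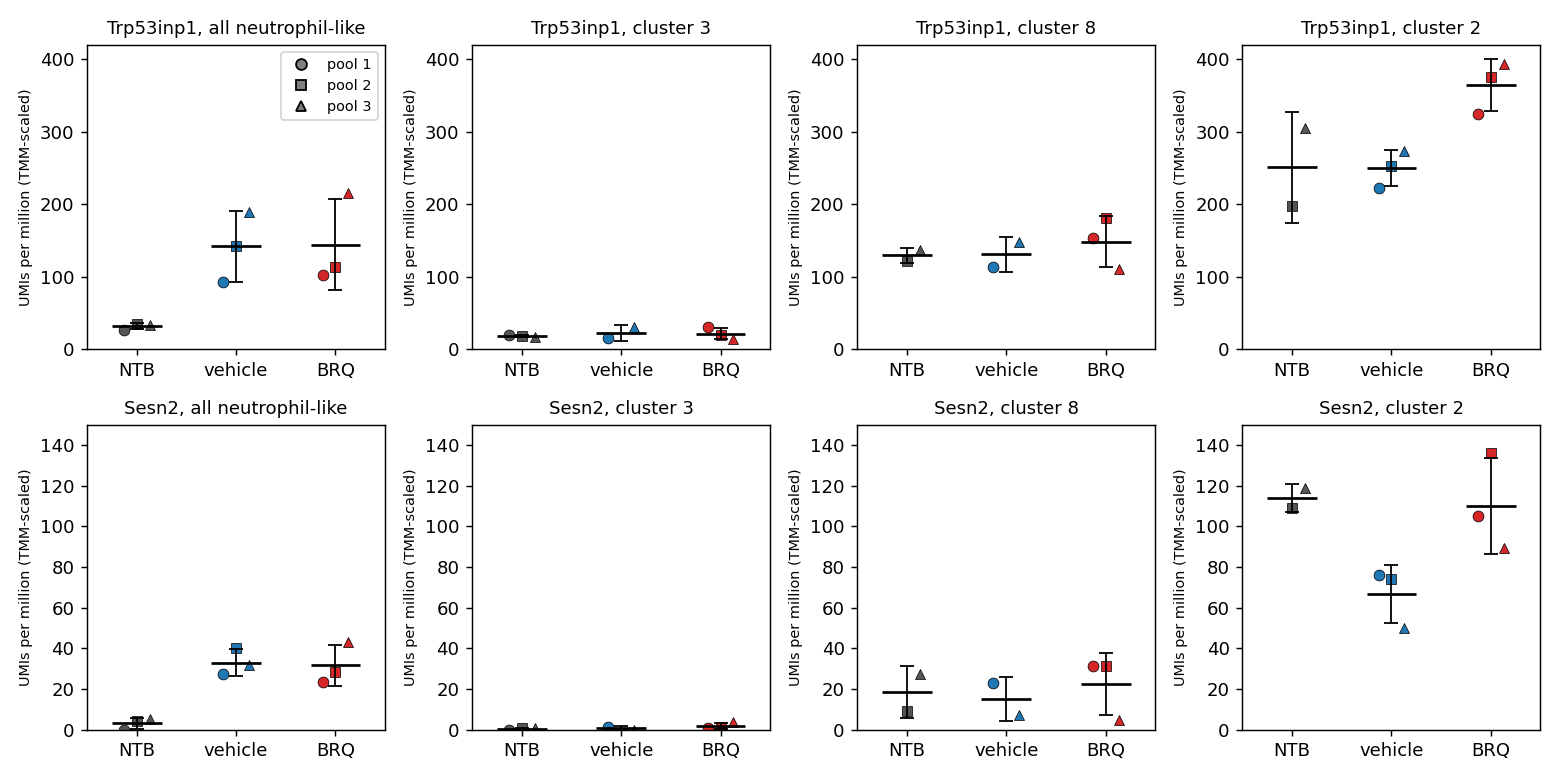
Levels of Trp53inp1 and Sesn2 (CPM) per mouse in all neutrophil-like cells and in each of their clusters 3, 8 and 2. Over all neutrophil-like cells the tumor-bearing mice lay above the NTB mice (93 to 216 against 26.9 to 35 for Trp53inp1), and within cluster 2 the vehicle-treated mice (223 to 273) lay within the NTB range (197 to 305).

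The levels of the members across the 5 cell classes with mice of every group in at least 2 pools, as plain CPM and mean ± SD over mice of all groups, are given as a description. Cdkn1a was at 12.8 ± 11.39 in monocyte/MDP-like (9 mice), 12.79 ± 5.835 in neutrophil-like (9 mice), 10.11 ± 4.904 in HSC/MPP-like (8 mice) and 4.586 ± 5.817 in GMP-like cells (9 mice) and 4.222 ± 5.497 in GMPs (9 mice). Neighbours in this order differed by less than the larger of their SDs. Bax was highest of the 5 in GMPs (132.9 ± 41.54) and monocyte/MDP-like cells (129.5 ± 36.19), lower in HSC/MPP-like cells (72.97 ± 20.68) and lowest in neutrophil-like cells (27.47 ± 3.384). Mdm2 was at 63.47 ± 11.15 in neutrophil-like cells and 32.01 ± 7.807 in GMPs. Trp53inp1 was at 108.1 ± 73.71 and Sesn2 at 23.03 ± 16.73 in neutrophil-like cells, against 1.796 ± 1.091 for Sesn2 in GMPs. Erythroid/MEP-like cells had 20 cells or more in 6 mice, only 1 of them given vehicle, with Ccng1 at 78.97 ± 19.37 and Phlda3 at 11.66 ± 7.447, against 0.2086 ± 0.3417 for Phlda3 in GMPs. The remaining classes reached 20 cells in 1 to 4 mice that did not hold the groups equally, and their levels are not ranked.

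When all singlets of a mouse were summed regardless of class, 2 of the 9 members tested were called in BRQ against vehicle, against 4.07% of all 13234 genes. Phlda3 was at 0.979, 0.228 and 0.285 CPM in vehicle and 2.33, 2.32 and 2.38 in BRQ-treated mice (1.82, SE 0.368, adjusted p = 0.0215), and at 1.55, 0.818 and 0.86 in NTB mice. The BRQ-treated mice were nearly equal and above all others. Cdkn1a gave 1.36 (SE 0.293, adjusted p = 0.0254). These sums mix classes whose shares differed between groups, so a change of level within cells and a change in the mix of cells cannot be told apart in them.

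The genes whose levels followed Cdkn1a most closely were named by Pearson's r of log2 levels, as a description over sums that share libraries and depth. Over the 9 GMP sums, among 5196 genes with a mean of at least 20 CPM, these were Cd47 (0.966), Rangap1 (0.965), Rprd1a (0.949), Bclaf1 (0.943) and Flot2 (0.939). Over 50 sums of class and mouse, among 5950 genes, they were Ski (0.792), Rab14 (0.74), Rab35 (0.728), Sf3b1 (0.728) and Rnf10 (0.702). No gene was in both sets, and none of the other members was among them. In GMPs only Mdm2, Ccng1 and Bax of those members reached a mean of 20 CPM, so the rest could not be named there.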

How the data were processed

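The authors deposited matrices of raw UMI counts for genes and hashtags in each barcode of a pool, from 10x 3′ libraries counted by Cell Ranger 6.0.0 (mm10 and Seurat are also named in the submitters' processing notes). Barcodes with 500 to 7500 detected genes and at most 15% mitochondrial UMIs were kept. The study words these limits as transcripts. Read as UMIs they left 8 to 89 GMPs per mouse and no member was called in them. HTODemux of Seurat 5.3.0, at a quantile of 0.99, called the hashtags of each pool, and singlets were given to their mouse. Hashtag doublets were left out, and cells marked by Scrublet (scanpy 1.11.5; 3.576% to 5.378% of a pool) only in an alternative. GMPs were singlets with ln(1 + Ms4a3 UMIs per 10000) over 3, and the study's own scale for that limit may differ. Leiden clusters (2000 variable genes without the members or listed genes, 30 components, 20 neighbours, resolution 0.8) were named from marker lists, and 4 of 20 stayed unnamed. Class names end in -like because they were rebuilt here.

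Counts were summed per mouse and class (at least 20 cells) and fitted with edgeR 4.0.16 (TMM, filterByExpr, quasi-likelihood, two-sided, Benjamini-Hochberg over all genes of a fit). Intervals are 95%, with the residual degrees of freedom of the fit (6 with all 9 mice, 5 with 8), without those edgeR borrows across genes for its p-values. DESeq2 1.42.0 was the other count test. R 4.3.3 and Python 3.11.15 were used, and the code was tested on simulated counts. The p-values measure the spread between 3 mice per group. Limits of 3 counts cover counting error only.

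Mice of 1 pool shared a library, so the pool pairs them. Their log2 deviations from the group means in GMPs correlated within pools with a median r of 0.099 across genes (lowest -0.00752, 9 pairs), against -0.037 between pools (18 pairs). The main fits had no block, and a fit with it stands beside the results it changes.

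The members, gene lists and tests were chosen with earlier results of these data known. Named genes are all members, up to 6 called genes with the smallest adjusted p per list and comparison, and the 5 genes most like Cdkn1a in each set of sums. The lists held 35 other p53 targets, 17 regulators, 19 BCL2 partners, 20 G1 regulators and 20 stress response genes. The BCL2 list in GMPs for BRQ against vehicle is not reported here. Sequences are from RefSeq, GRCm38.p6.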

Additional observations from a re-analysis of the deposited data

Results flagged for a closer look

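The changes of 2 of 8 members tested differed between neutrophil-like cells and GMPs of the same mice by the interaction test (edgeR quasi-likelihood, Benjamini-Hochberg over 9497 genes). In vehicle against NTB, the log2 fold change was larger in neutrophil-like cells by 2.71 for Trp53inp1 (SE 0.424, adjusted p = 7.78e-05) and by 2.58 for Sesn2 (SE 0.83, adjusted p = 0.0291), where 21.4% of all genes differed, a share near that of the members. In BRQ against NTB it was larger by 2.26 for Trp53inp1 (SE 0.397, adjusted p = 0.000828), where 8.79% of all genes differed. Cluster 2 made up 4.51% to 9.565% of neutrophil-like cells in NTB mice and 39.4% to 87.39% in tumor-bearing mice, and its part in these differences was not tested in the interaction.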

How the results depend on the processing

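In GMPs, 0, 2 and 2 members were called in vehicle against NTB, BRQ against vehicle and BRQ against NTB. DESeq2 called 1 in BRQ against vehicle. Without the filter on low counts the counts were 2, 4 and 4, with the pool as a replicate block 1, 4 and 4, and with an Ms4a3 limit of 2.5 they were 2, 1 and 4. With GMP-like clusters as GMPs they were 2 in vehicle against NTB and 4 in BRQ against NTB, and without Scrublet cells 1 in BRQ against NTB. When the limits of 500 and 7500 were read as UMIs, both counts with BRQ were 0. In alternatives chosen after seeing the data, GMPs of cluster 0 gave 0 and 1 and those of cluster 1 gave 4 and 1 in the 2 comparisons with BRQ. Leaving out each mouse in turn gave 0 to 1, 1 to 3 and 1 to 3 members. All genes called numbered 1169, 1389 and 621. The block gave 1693, 2105 and 1217, DESeq2 891 in BRQ against vehicle, and leaving out a mouse 538 to 1500, 699 to 1477 and 227 to 775. GMP-like clusters gave 2644 and the limit of 2.5 gave 2509 in vehicle against NTB, and 1475 and 1744 in BRQ against NTB. The limits read as UMIs gave 0, 0 and 2. Cluster 0 gave 613, 771 and 229 and cluster 1 gave 186 and 93 in the comparisons with NTB.

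Outside GMPs, 7, 6 and 15 pairs of member and class were called, with the block 8, 7 and 15, and leaving out a mouse 3 to 8, 2 to 8 and 8 to 16. DESeq2 called 5, 2 and 9, giving no adjusted p for 1, 3 and 1 of the pairs called by edgeR, and without the filter 10 were called in BRQ against vehicle. No member's change differed between neutrophil-like cells and GMPs in BRQ against vehicle, with 0 called in all 13 alternatives. The block changed no call other than those given in the report. Unthinned shares of cells were 1.437%, 3.025% and 8.912% for Cdkn1a and 60.88%, 78.93% and 82.62% for Bax in NTB-, Veh- and BRQ-GMPs.

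Uncalled members changed direction in places. Mdm2 in vehicle against NTB went from 0.01 to -0.000152 (RLE), -0.0823 (tag ratios), -0.0295 (without Scrublet cells), -0.016 (GMP-like clusters), -0.101 (limit of 2.5), -0.0192 (cluster 0) and lay between -0.0902 and 0.191 without one mouse (below 0 without NTB 1 or 2, vehicle 2 or BRQ 3). Trp53inp1 in BRQ against NTB went from -0.06 to 0.523 (tag ratios), 0.574 (cluster 1) and between -0.221 and 0.257 without one mouse. Pmaip1 in BRQ against vehicle went to 0.0513 (GMP-like clusters) and lay between -0.871 and 0.287 without one mouse. Cdkn1a in vehicle against NTB was -0.367 with tag ratios. With the limits read as UMIs, Ccng1 in vehicle against NTB was -1.03 and Mdm2 in BRQ against vehicle was -0.265. The causes were not tested. Bax in BRQ against NTB kept its call in 19 of 20 alternatives and lost it with the limits read as UMIs (0.274, adjusted p = 0.944). Bbc3, Phlda3, Eda2r and, in NTB-GMPs, Cdkn1a are limited by depth.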
